A study of Mus musculus with 24 samples.

Results

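The 9 genes described here make or assemble the enzymes with which colon epithelium and its resident phagocytes produce superoxide, hydrogen peroxide and nitric oxide. They are Nox1, Noxo1, Noxa1, Duox1, Duox2, Duoxa2, Cyba, Cybb and Nos2, chosen by symbol from the 24346 symbols of each of the 24 deposited tables, and all 9 had a row in every table. The samples were pieces of mouse colorectal tissue annotated as tumor or normal. Every sample, normal pieces included, carries the treatment label AOM/DSS: azoxymethane, a carcinogen, and dextran sulfate sodium, a polymer that injures the colon lining. The genotype label was c-MAF_KO or WT. By title, 9 KO-labelled tumors were split evenly over KO-1-hetero, KO-8-hetero and the group KO-8-homo, with 3 in each, and the WT label over WT-young (4 tumors) and WT-old (1 tumor). Normal tissue was represented by 2 libraries of each title. Strain, sex, Cre driver, age in weeks and the meaning of the numbers 1 and 8 are absent from the labels. No label ties a sample to an animal, so the p-values measure only the spread between these samples.

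NADPH oxidases move electrons across a membrane onto oxygen. NOX1 is the superoxide-producing oxidase of colon epithelium and works with the membrane partner p22phox (Cyba), the organizer NOXO1 and the activator NOXA1. The dual oxidases DUOX1 and DUOX2 release hydrogen peroxide at the apical surface of epithelia, and each reaches that surface only with its maturation factor, DUOXA1 or DUOXA2. NOX2 (Cybb) is the phagocyte oxidase and also pairs with p22phox. Inducible nitric oxide synthase (Nos2) makes nitric oxide from arginine in inflamed epithelium and in activated macrophages.

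The genes are placed here on GRCm38 with the GENCODE M21 annotation, the mm10 build that the submitters' processing notes name. Nox1 (chrX:134086421-134221956) and Cybb (chrX:9435252-9487771) lie on the minus strand of the X chromosome. Noxo1 (chr17:24696234-24700529) and Nos2 (chr11:78920787-78960254) lie on plus strands, and Cyba (chr8:122424776-122432930) and Noxa1 (chr2:25085667-25095149) on minus strands. The dual oxidases form a cluster of 68726 bases on chromosome 2 that holds Duox2 (chr2:122279247-122298449, minus), Duoxa2 (chr2:122298900-122302885, plus), Duoxa1 (chr2:122302191-122313730, minus) and Duox1 (chr2:122315672-122347972, plus). Each oxidase thus stands head to head with its maturation factor, and 450 bases separate the starts of Duox2 and Duoxa2. Several gene models overlap others: Noxo1 shares 2581 bases with Tbl3 on the opposite strand, Duoxa2 shares 695 with Duoxa1, Noxa1 shares 50 with Entpd8, Nox1 shares 13034 with Xkrx on its own strand, 20528 with Arl13a and 399 with Cstf2, and Cyba shares 8155 with Gm20388. The strand setting of the counting is not given in the sources used here, so values of these genes may hold reads of the partner. Xkrx stayed at or below 2.97 FPKM and Arl13a at or below 0.0702 in all libraries.

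The promoter windows below run from 250 bases before to 50 after a RefSeq start (GRCm38.p6), 5′ to 3′ on the gene's own strand, and 8 of the 9 genes had an entry (all but Nos2). They are shown for the dual oxidase cluster, where the data below separate the Duox2 and Duoxa2 pair from the Duoxa1 and Duox1 pair, and for Noxa1 and Noxo1, partners in 1 enzyme whose transcripts differed between tumor and normal tissue in unlike ways. Capitals mark matches, on either strand, to letters searched for factors known in gut or inflammation: TTCNNNGAA for STAT factors, the NF-kB consensus by name, TATAAA for the TATA box, CCAAT for NF-Y, AGATAA for GATA factors, TTTATNG for CDX factors and TGANTCA for AP-1. The windows are chr2:122298178-122298477 and chr2:122313681-122313980 (minus), chr2:122298650-122298949 and chr2:122315422-122315721 (plus), chr2:25095156-25095455 (minus) and chr17:24695984-24696283 (plus).
Duox2: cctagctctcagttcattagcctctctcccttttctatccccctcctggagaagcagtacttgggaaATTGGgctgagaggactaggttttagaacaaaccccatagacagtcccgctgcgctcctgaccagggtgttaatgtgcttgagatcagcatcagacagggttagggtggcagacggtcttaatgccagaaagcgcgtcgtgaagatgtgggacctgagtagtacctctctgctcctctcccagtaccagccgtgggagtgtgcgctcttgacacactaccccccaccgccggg
Duoxa2: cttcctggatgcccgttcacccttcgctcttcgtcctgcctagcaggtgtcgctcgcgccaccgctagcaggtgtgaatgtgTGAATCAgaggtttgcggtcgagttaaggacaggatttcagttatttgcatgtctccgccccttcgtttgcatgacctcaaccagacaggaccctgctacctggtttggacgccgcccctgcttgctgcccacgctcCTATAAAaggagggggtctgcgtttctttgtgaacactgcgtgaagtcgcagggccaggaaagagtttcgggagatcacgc
Duoxa1: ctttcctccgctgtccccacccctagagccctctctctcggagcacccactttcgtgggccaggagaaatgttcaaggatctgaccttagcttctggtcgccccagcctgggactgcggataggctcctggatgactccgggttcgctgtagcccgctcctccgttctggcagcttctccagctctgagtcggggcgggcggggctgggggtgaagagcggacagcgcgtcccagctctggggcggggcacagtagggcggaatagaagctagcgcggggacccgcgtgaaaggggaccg
Duox1: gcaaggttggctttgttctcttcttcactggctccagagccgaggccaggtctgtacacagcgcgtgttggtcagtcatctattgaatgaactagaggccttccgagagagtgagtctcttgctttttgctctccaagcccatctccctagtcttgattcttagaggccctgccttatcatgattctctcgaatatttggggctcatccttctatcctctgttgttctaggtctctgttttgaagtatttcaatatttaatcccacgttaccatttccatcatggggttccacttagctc
Noxa1: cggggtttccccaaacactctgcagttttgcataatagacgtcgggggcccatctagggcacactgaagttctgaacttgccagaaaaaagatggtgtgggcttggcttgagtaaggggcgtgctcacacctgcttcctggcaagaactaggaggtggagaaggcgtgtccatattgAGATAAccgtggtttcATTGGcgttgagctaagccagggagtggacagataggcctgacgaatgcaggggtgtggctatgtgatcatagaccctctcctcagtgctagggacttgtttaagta
Noxo1: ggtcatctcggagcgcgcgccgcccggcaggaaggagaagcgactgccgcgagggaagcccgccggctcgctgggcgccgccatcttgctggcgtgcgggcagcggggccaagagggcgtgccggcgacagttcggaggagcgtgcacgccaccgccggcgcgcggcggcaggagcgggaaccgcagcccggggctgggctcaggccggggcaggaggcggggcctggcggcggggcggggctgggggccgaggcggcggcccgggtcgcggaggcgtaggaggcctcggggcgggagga

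Duoxa2 held a TATA box whose first base is 30 bases before the start, overlapped by a reverse-strand CDX match, and an AP-1 match 168 bases before the start. Duox2 held a reverse-strand CCAAT match 183 bases before the RefSeq start of its window. That start lies inside the GENCODE model of Duox2, whose own start is at 122298449. The match and most of the window thus fall within this model, and little of the stretch between Duox2 and Duoxa2 is covered. Noxa1 held a GATA match and a reverse-strand CCAAT match, 73 and 57 bases before its start. The windows of Duoxa1, Duox1 and Noxo1 held none of these letters. Among 32851 RefSeq promoter windows of the same length, TATAAA was present in 13.6%, CCAAT in 37.4%, TTTATNG in 10.9%, TGANTCA in 7.81%, AGATAA in 11.2%, TTCNNNGAA in 8.3% and the NF-kB consensus in 0.155%. A match describes letters only.

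Expression was given as FPKM, fragments scaled by transcript length and by sequencing depth, which allows levels of different genes to be set side by side. In tumors the order of the medians over 14 libraries was Cyba (188 FPKM), Duoxa2 (61.2), Noxo1 (41.1), Duox2 (27.9), Noxa1 (23.4), Nox1 (16.2), Nos2 (11.8), Cybb (7.01) and Duox1 (0.0558). In normal tissue, over 10 libraries, it was Cyba (103 FPKM), Noxa1 (50.5), Noxo1 (34.5), Duoxa2 (24.6), Duox2 (16.1), Nox1 (15.4), Cybb (3.43), Nos2 (2.02) and Duox1 (0.0633). Noxa1 stood next to Cyba in normal tissue but below Duoxa2, Noxo1 and Duox2 in tumors, and Duoxa2 took its place there. The plot of FPKM by library shows these levels.

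**Figure D1:**
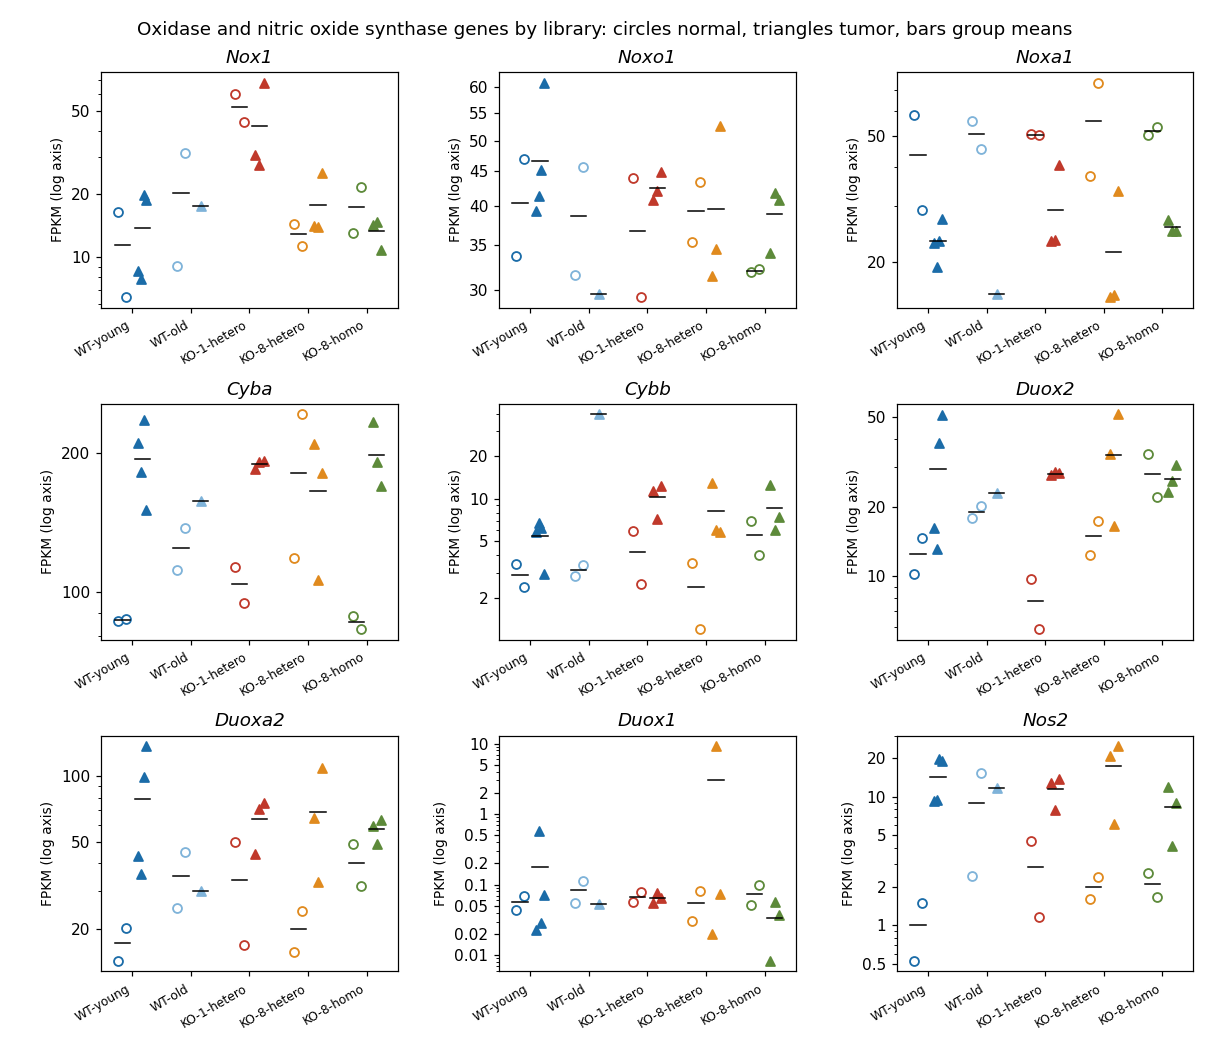
FPKM of the 9 genes (log axes, 1 panel a gene) in each title group; open circles are normal and filled triangles tumor libraries, and short bars are group means. Nos2 reached at most 4.54 FPKM in all normal libraries but WT-old normal replicate 2 (15.4), Noxa1 triangles lie below the circles of their own group in all 5 groups, and Duox1 exceeded 0.114 FPKM in 2 tumors only.

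Facts of the whole series that touch these genes are as follows. Maf, the labelled gene, was not lower in the KO-labelled tumors (2.62 to 7.40 FPKM) than in the WT-young tumors (1.63 to 2.26 FPKM), so KO below means the label. The colon epithelial genes Epcam, Cdh1, Krt8, Krt18, Krt19, Vil1, Cdx1 and Cdx2 summed to 3985 to 10260 FPKM in tumors and 5879 to 14250 in normal tissue, and none was at 0 in any library. Markers of other cells differed between tumor and normal tissue too: under the WT and KO labels 6 of 7 and 7 of 7 tested neutrophil genes, and 6 of 8 and 6 of 8 macrophage genes, were higher in tumors, and 6 of 6 and 6 of 6 smooth muscle genes were lower. By the limma test described below, 15.5% (WT) and 24.1% (KO) of all genes were higher, and 14.8% and 23.2% lower. In bulk tissue, fewer cells of a type and less RNA per cell cannot be told apart. Estimated depth spanned 0.69 to 1.87 times that of the median library. KO-8-hetero tumor replicate 2 and WT-young tumor replicate 2 stood apart by high keratins of stratified squamous epithelium, with Krt5 at 1163 and 250 FPKM against less than 1 elsewhere. Xist, transcribed from the inactive X chromosome, was at 7.38 to 50.0 FPKM in 6 libraries (KO-1-hetero and KO-8-hetero tumor replicate 3 and the 4 normal libraries of these groups) and at most 0.0719 in the other 18.

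Tumor was compared with normal tissue within each genotype label, to find which parts of the oxidative machinery differ in transcript level once tissue is neoplastic. Under the WT label 3 genes were higher (Nos2, Duoxa2 and Cyba) and 1 lower (Noxa1) of 8 tested. Under the KO label 5 were higher (the same 3 with Duox2 and Cybb) and 1 lower (Noxa1) of 8. Duox1 did not pass the filter of at least 1 FPKM in at least 4 libraries and was not tested. The test was limma on log2(FPKM + 1) with Benjamini-Hochberg adjustment over 13799 genes at 0.05, and it called 30.4% of all genes under the WT label (15.5% higher and 14.8% lower) and 47.2% under the KO label (24.1% higher and 23.2% lower). The shares of the genes described here, 50% and 75% of 8, are to be read against those. The median difference over the 8 was 0.75 and 0.78 on the log2 scale, against 0.02 and 0.02 over all genes tested. Differences below use log2(FPKM + 1), a scale on which changes of low genes come out too small.

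**Figure D2:**
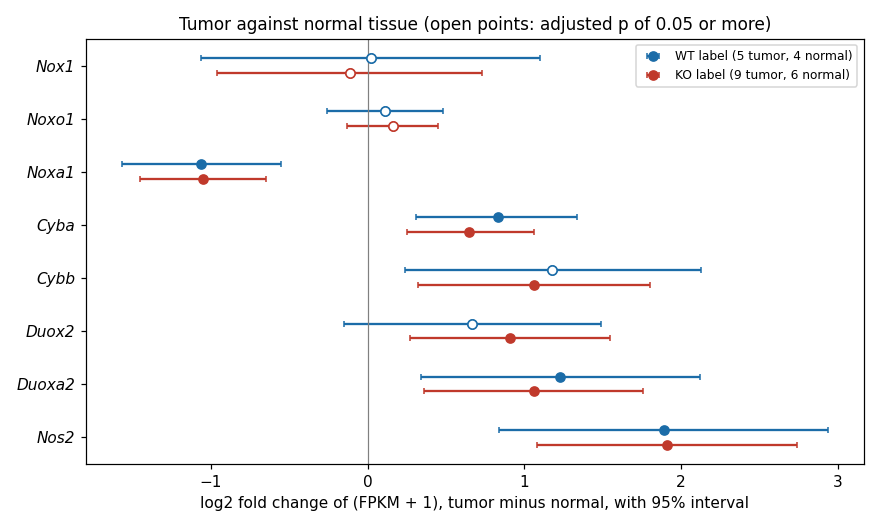
Difference between tumor and normal tissue (x axis, log2 of FPKM + 1) for the 8 tested genes under the WT and KO labels; points are limma estimates and bars 95% intervals, and open points had an adjusted p of 0.05 or more. Noxa1 lies near -1 under both labels (-1.06 and -1.05), Nos2 lies near 1.9 (1.89 and 1.91), and Nox1 lies near 0 (0.02 and -0.11).

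Nos2, which makes nitric oxide, showed the largest difference of the 8 under both labels. In WT-labelled tumors it measured 9.36, 9.45, 19.6 and 18.9 FPKM (WT-young) and 11.8 (WT-old), and in WT-labelled normal tissue 0.530, 1.48, 2.41 and 15.4. The last, WT-old normal replicate 2, was as high as the tumors, and without it the ranges did not overlap. In the 9 KO-labelled tumors Nos2 ran from 4.13 over a median of 11.9 to 24.8 FPKM, and in the 6 KO-labelled normal libraries from 1.16 over 2.02 to 4.54, so that only the lowest tumor (KO-8-homo replicate 2) fell below the highest normal library. The log2 difference was 1.89 (SE 0.51, limma adjusted p = 0.00806) under the WT label and 1.91 (SE 0.4, limma adjusted p = 0.000603) under the KO label. It passed in every alternative run, and it was 2.90 under the WT label without the WT-old libraries. In WT-young alone the ratio of mean FPKM was 14.3, 8.63 for KO-8-hetero, 4.04 for KO-1-hetero, 3.93 for KO-8-homo and 1.32 for WT-old. Neutrophil genes moved in the same direction: their summed FPKM was 18.1 to 1773 in tumors and 2.81 to 33.6 in normal tissue. Their part in the Nos2 difference was not tested. The lowest neutrophil sum of any tumor, 18.1 FPKM in WT-old tumor replicate 1, came with 11.8 FPKM of Nos2. The highest, 1773 in KO-8-hetero tumor replicate 2, came with 6.15. Macrophage and monocyte genes summed to 689 and 288 FPKM in these 2 tumors, and their part was not tested either. These are 2 of 14 tumors and do not describe the rest.

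Duoxa2 and Duox2, the maturation factor and its oxidase, were higher in tumors in most groups. In WT-labelled tumors Duoxa2 measured 43.0, 35.6, 99.9, 138 and, in WT-old, 29.9 FPKM, and in WT-labelled normal tissue 14.3, 20.3, 25.0 and 45.0. The 4 WT-young tumors all lay above the 2 WT-young normal libraries, while the WT-old tumor lay between its 2 normal libraries. In KO-labelled tumors Duoxa2 ran from 33.0 over 63.1 to 109 FPKM and in KO-labelled normal tissue from 15.7 over 27.9 to 50.2. The difference was 1.23 (SE 0.431, limma adjusted p = 0.0339) under the WT label and 1.06 (SE 0.338, limma adjusted p = 0.0134) under the KO label. The first is the less firm: leaving out WT-young tumor replicate 3 or 4, WT-young normal replicate 1 or 2, or WT-old normal replicate 1 gave limma adjusted p of 0.0648 to 0.111, testing genes without a filter gave 0.05, and dropping the WT-old libraries raised the difference to 1.93.

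Duox2 measured 16.3, 13.2, 38.2 and 50.7 FPKM in the WT-young tumors, 23.1 in the WT-old tumor, and 10.2, 14.7, 17.9 and 20.3 in WT-labelled normal tissue. These ranges overlapped, and the difference of 0.67 (SE 0.396, limma adjusted p = 0.197) did not pass. In KO-1-hetero the 3 tumors (27.6, 28.5 and 28.3 FPKM) lay well above both normal libraries (9.72 and 5.88). KO-8-homo showed no such gap, with 23.4, 26.0 and 30.7 FPKM in tumors and 34.1 and 22.2 in normal tissue. KO-8-hetero was wide, with 34.4, 16.6 and 51.1 in tumors and 12.4 and 17.5 in normal tissue. Over the KO label the difference was 0.91 (SE 0.311, limma adjusted p = 0.0201). Without KO-1-hetero normal replicate 1 or 2 it was 0.80 (limma adjusted p = 0.0513) or 0.67 (0.0731), and with Xist as a covariate 0.82 (0.0528), so that the call, but not the direction, was lost.

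Duox2 and Duoxa2 varied together from tumor to tumor. Over the 14 tumors Pearson's r of log2(FPKM + 1) was 0.871 (permutation p = 6e-05, 0.00216 adjusted over the 36 pairs of the 9 genes) and Spearman's rho was 0.899 (permutation p = 1e-05, the smallest that 100000 resamples can give, adjusted 0.00036). Without the 2 tumors farthest from the median of Duox2, r was 0.850, and over the alternatives it ran from 0.860 to 0.950. Noxo1 and Duoxa2 (r = 0.759, adjusted permutation p = 0.0311; rho = 0.754, adjusted 0.0504) and Noxo1 and Cybb (r = -0.740, adjusted permutation p = 0.0329; rho = -0.591, adjusted 0.127) passed by Pearson's r only, and r fell to 0.538 and -0.439 without the 2 farthest tumors. The other 33 pairs did not pass by r. The FPKM ratio of Duoxa2 to Duox2 was above 1 in all 24 libraries, with 1.29 to 2.71 in tumors (median 2.32) and 1.26 to 5.16 in normal tissue (median 1.41). The highest ratio belonged to KO-1-hetero normal replicate 1, where Duoxa2 was at 50.2 FPKM and Duox2 at 9.72. Of the 13798 other genes tested, Golgb1 (r = 0.896 over 14 tumors), Gpr107 (0.895) and Duoxa2 (0.871) had the patterns most like that of Duox2. Golgb1 encodes a Golgi matrix protein.

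**Figure D3:**
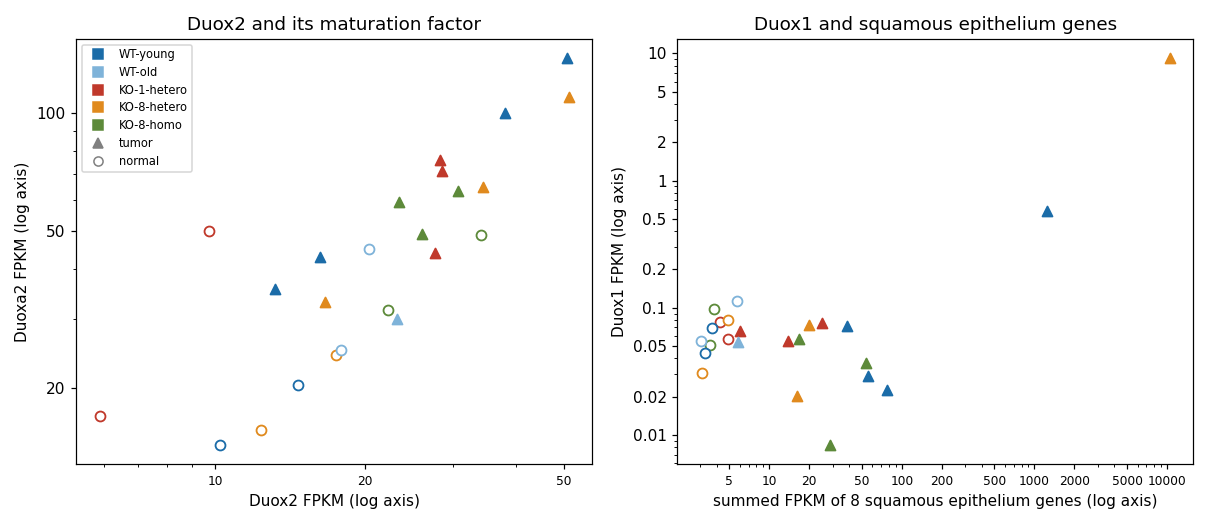
Left, Duoxa2 against Duox2 FPKM in 24 libraries (log axes); right, Duox1 FPKM against the summed FPKM of 8 squamous epithelium genes (log axes). Colors are title groups, triangles tumors and circles normal tissue. Duoxa2 climbs with Duox2 across the tumors (r = 0.871), and the 2 tumors at the right of the second panel, with squamous sums of 1236 and 10550 FPKM, are those with Duox1 at 0.581 and 9.17.

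Duox1, the second dual oxidase, was close to undetected in colon tissue with 2 exceptions. It measured 0.00836 to 0.114 FPKM in 22 libraries, 0.581 in WT-young tumor replicate 2 and 9.17 in KO-8-hetero tumor replicate 2. Duoxa1, its maturation factor, was at 2.66 and 18.6 FPKM in the same 2 tumors and at most 0.545 elsewhere. These are the 2 tumors with keratins of stratified squamous epithelium: Krt14 was at 579 and 3173 FPKM there, and Trp63, the master regulator of squamous progenitors, at 4.64 and 29.6 against at most 0.0468 elsewhere. The 8 squamous genes summed to 1236 and 10550 FPKM in those tumors and to 3.05 to 77.2 in the other 22 libraries. This list was chosen after the values were seen, and its part in the Duox1 signal was not tested. Duox2 and Duoxa2 were not high in these tumors: their 13.2 and 35.6 FPKM in the WT-young tumor and 16.6 and 33.0 in the KO-8-hetero tumor were the lowest of their groups. Without both tumors the same numbers of genes were called, 4 under the WT label and 6 under the KO label.

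Nox1, the catalytic subunit of the epithelial superoxide source, showed no tumor against normal difference beyond its spread. Its highest levels were in KO-1-hetero, which held 30.7, 27.4 and 68.0 FPKM in tumors and 59.9 and 44.3 in normal tissue. KO-8-hetero held 14.1, 14 and 25.1 in tumors with 14.3 and 11.3 in normal tissue, and KO-8-homo 14.2, 14.7 and 10.8 with 13.0 and 21.5. The WT-young tumors held 8.57, 7.88, 19.8 and 18.8 FPKM and their normal tissue 16.4 and 6.45, and WT-old held 17.6 in the tumor with 9.10 and 31.4 in normal tissue. The 5 KO-1-hetero libraries were thus among the 6 highest of the series, joined by WT-old normal replicate 2. In order of the group means, KO-1-hetero normal tissue (52.1 ± 11 FPKM, SD, n = 2) and tumor (42 ± 22.6, n = 3) led, and WT-young normal tissue (11.4 ± 7.06, n = 2) was last. No neighbours in the order of the 10 groups were apart beyond their ranges. The tumor minus normal difference was 0.02 (95% interval -1.06 to 1.10, limma adjusted p = 0.983) under the WT label and -0.11 (-0.96 to 0.73, limma adjusted p = 0.838) under the KO label, and its sign changed with scaling or with 1 library left out. Lman2 (r = 0.876), Dnajc3 (0.868) and Trpm5 (0.866) were the genes most like Nox1 over the 14 tumors. Trpm5 is a cation channel of tuft cells, and Dnajc3 a chaperone of the endoplasmic reticulum.

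Noxo1 and Noxa1 are the cytosolic partners of NOX1, and they differed from each other. Noxo1 was the steadiest of the 9: 29.6 to 61.0 FPKM in tumors and 29.3 to 46.9 in normal tissue, with a difference of 0.11 (95% interval -0.26 to 0.48, limma adjusted p = 0.656) under the WT label and 0.16 (-0.13 to 0.45, 0.357) under the KO label. Under the KO label that became 0.34 (limma adjusted p = 0.0243) with upper quartile scaling and 0.37 (0.0171) with quantile normalization, both past the threshold. Its opposite-strand neighbour Tbl3 was itself higher in tumors, by 0.64 under the WT label and 0.31 under the KO label, and was at 10.8 to 22.3 FPKM.

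Noxa1, the activator, fell in tumors. It measured 22.9, 19.2, 23.3 and 27.3 FPKM in the WT-young tumors and 15.8 in the WT-old tumor, all below the 58.2, 29.1, 55.7 and 45.6 of WT-labelled normal tissue. In KO-labelled tumors it ran from 15.4 over 24.9 to 40.5 FPKM and in KO-labelled normal tissue from 37.4 over 50.5 to 73.9. Within each of the 5 title groups every tumor lay below every normal library. The difference was -1.06 (SE 0.244, limma adjusted p = 0.00276) under the WT label and -1.05 (SE 0.192, limma adjusted p = 0.000165) under the KO label. The first was -0.81 (limma adjusted p = 0.0769) without the WT-old libraries, and the second passed in every alternative run. The ratio of Noxa1 to Noxo1 in FPKM was below 1 in all 14 tumors (0.447 to 0.902) and above 1 in 8 of 10 normal libraries (0.62 to 1.77). Entpd8, which overlaps the Noxa1 model by 50 bases, was lower in tumors as well, by 0.72 (log2) under the WT label and 0.95 under the KO label. Genes of mature colonocytes moved the same way, 5 of 6 lower under each label, with summed FPKM of 433 to 3724 in tumors and 4335 to 19300 in normal tissue. Of all genes, 14.8% and 23.2% were called lower under the WT and KO labels. The part of the colonocyte genes in the Noxa1 difference was not tested.

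Cyba, the shared membrane partner p22phox, was the most abundant of the 9. It measured 210, 182, 237 and 150 FPKM in the WT-young tumors and 158 in the WT-old tumor, all above the 86.3, 87.3, 111 and 138 of WT-labelled normal tissue. In KO-labelled tumors it ran from 106 over 191 to 235 FPKM and in KO-labelled normal tissue from 83.1 over 104 to 243. KO-8-hetero alone went against this. Its second tumor, one of the 2 squamous tumors, was at 106 FPKM and its second normal library at 243. That normal library also had the highest FPKM summed over all genes, 1016810 against at most 745639 in the others. The part of this in its Cyba value was not tested. The difference was 0.83 (SE 0.25, limma adjusted p = 0.0157) under the WT label and 0.65 (SE 0.196, limma adjusted p = 0.00936) under the KO label. Neither would pass a rule that also asks for a log2 difference of 1. With libraries of the same title and replicate number treated as 1 block, neither passed (0.94, limma adjusted p = 0.138, and 0.65, 0.0978).

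Cybb, the phagocyte oxidase NOX2, was low and higher in tumors. The WT-young tumors held 5.82, 6.79, 6.27 and 2.96 FPKM, the WT-old tumor 39.5, and WT-labelled normal tissue 3.44, 2.39, 2.84 and 3.43. In KO-labelled tumors Cybb ran from 5.83 over 7.40 to 13.0 FPKM and in KO-labelled normal tissue from 1.21 over 3.78 to 7.02. The difference was 1.06 (SE 0.358, limma adjusted p = 0.0188) under the KO label, and 0.85 (0.0629) without KO-8-hetero normal replicate 2. Under the WT label it was 1.18 (SE 0.456, limma adjusted p = 0.0524), short of the threshold, but 1.27 (0.0474) with upper quartile scaling and 1.48 (0.0158) without WT-young tumor replicate 4. Without the WT-old tumor it fell to 0.64 (limma adjusted p = 0.139), and without the 3 WT-old libraries it was 0.69 (0.262). The macrophage and monocyte genes C1qa, C1qb, Csf1r, Adgre1, Cd68, Mrc1, Cd14 and Fcgr1 summed to 263 to 689 FPKM in tumors and 123 to 377 in normal tissue, with none at 0 in any library. The highest sum, 689, was that of the WT-old tumor with 39.5 FPKM of Cybb, and the lowest tumor sum, 263, that of WT-young tumor replicate 4 with 2.96. KO-1-hetero tumor replicate 3 had a sum of 683, while no KO-labelled tumor had more than 13.0 FPKM of Cybb. The WT-old tumor also had the highest sums of B and plasma cell genes (1815 FPKM) and of T cell genes (107) in the series. The part of these cell type genes in the Cybb difference was not tested. 

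**Figure D4:**
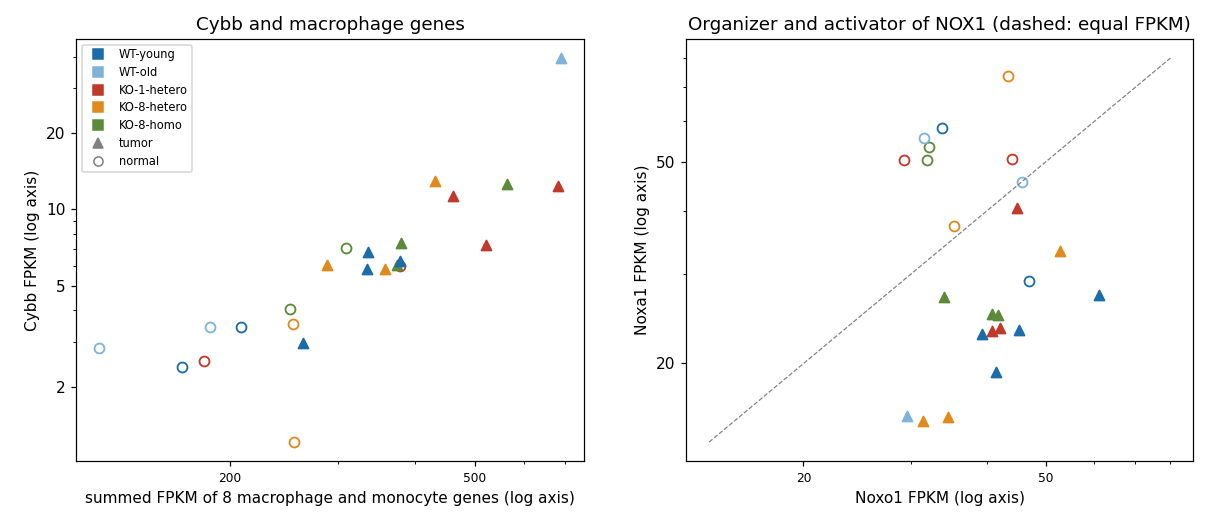
Left, Cybb FPKM against the summed FPKM of 8 macrophage and monocyte genes; right, Noxa1 against Noxo1 FPKM with a dashed line of equal values; log axes, 24 libraries, colors by title group, triangles tumors and circles normal tissue. The WT-old tumor stands at the top right of the left panel (689 and 39.5 FPKM), and in the right panel all 14 tumors lie below the dashed line and 8 of 10 normal libraries above it.

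Other subunits of the phagocyte oxidase were higher in tumors as well. Of 9 listed oxidase genes 5 were tested, and 2 were higher and 0 lower under each label (median 0.88 and 0.48). These were Ncf1 (p47phox), 1.30 (limma adjusted p = 0.0299) under the WT label and 0.90 (0.0368) under the KO label, and Ncf4 (p40phox), 1.13 (0.0425) and 0.81 (0.0449). Ncf1 and Ncf4 each lost their calls under several alternatives. Of all genes, 30.4% and 47.2% were called under the WT and KO labels, 15.5% and 24.1% as higher. Without the WT-old tumor, which was also the highest for Cybb, the WT values were 0.78 (limma adjusted p = 0.0687) for Ncf1 and 0.60 (0.0917) for Ncf4. The small GTPases Rac1 and Rac2 did not pass. Nox4 reached at most 1.25 FPKM and Nox3 at most 0.0384.

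Of 16 enzymes that remove superoxide and peroxide, 1 was higher and 6 lower under the WT label and 1 higher and 7 lower under the KO label, with medians of -0.19 and -0.27. The shares of all genes called lower were 14.8% and 23.2%, and those called in either direction 30.4% and 47.2%. The lower ones included mitochondrial peroxiredoxin Prdx3 (-0.68, limma adjusted p = 0.00289, and -0.94, 5.8e-06), the superoxide dismutase Sod1 (-0.75, 0.00233, and -0.80, 6.39e-05) and Gpx4, which reduces lipid peroxides, (-0.54, 0.0183, and -0.71, 0.000214). The higher one was the extracellular superoxide dismutase Sod3 (1.17, limma adjusted p = 0.0274, and 1.42, 0.000828). With quantile normalization, Sod1 and Gpx4 did not pass under the WT label (-0.27 and -0.24) and were -0.22 and -0.27 under the KO label. Without the WT-old libraries, Prdx3 (-0.56, limma adjusted p = 0.0659), Sod1 (-0.63, 0.0549) and Gpx4 (-0.55, 0.0831) did not pass under the WT label.

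The 10 genes listed around NRF2, the main antioxidant transcription factor, did not move as 1 group. They include Nfe2l2, the gene of NRF2 itself, and Keap1, a regulator of NRF2, beside genes that NRF2 regulates. Under the WT label 2 were higher and 4 lower, and under the KO label 3 higher and 1 lower (medians -0.36 and -0.02). Of all genes, 30.4% (15.5% higher, 14.8% lower) and 47.2% (24.1% higher, 23.2% lower) were called under these labels. The share of the 10 called under the KO label was thus below the background. Hmox1, heme oxygenase, rose by 2.09 (limma adjusted p = 0.00092) and 2.07 (3.77e-05), and Slc7a11, the cystine importer, by 1.80 (0.00022) and 1.61 (1.68e-05). Gclm, a subunit of the glutathione-making ligase, was -0.78 (limma adjusted p = 0.000664) under the WT label and -0.20 (0.158) under the KO label, and none of the 10 passed the interaction test. Lactoperoxidase (Lpo), the 1 tested gene of 4 peroxidases that could use the peroxide, did not pass (-0.60 and 0.15), and Mpo, the neutrophil peroxidase, was at most 0.0454 FPKM.

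Around Nos2, 4 of 12 tested genes of arginine and nitric oxide metabolism were higher under the WT label and 6 under the KO label, and 0 were lower (medians 0.19 and 0.33). Of all genes, 30.4% and 47.2% were called, 15.5% and 24.1% of all as higher, so the share of this list called in either direction was near the background. Arg1, arginase, which uses the same substrate as Nos2, showed 3.71 (limma adjusted p = 0.00878) and 3.76 (0.000667), with 1.53 to 529 FPKM in tumors and 0.190 to 3.80 in normal tissue. The highest value was that of KO-8-hetero tumor replicate 2, a squamous tumor. With a replicate block, Arg1 did not pass under the WT label (3.77, limma adjusted p = 0.0702). Ddah2, which degrades natural inhibitors of the synthases, rose by 1.49 (limma adjusted p = 0.00723) and 1.23 (0.00281), and did not pass under the WT label without the WT-old libraries (1.24, 0.0653). Slc7a2, a cationic amino acid transporter that imports arginine, was higher under the KO label (0.75, limma adjusted p = 0.000782) and 0.46 (0.0969) under the WT label. The other synthases stayed low, with Nos3 at 0.362 to 2.89 FPKM and Nos1 at most 1.05.

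Cytokines known to induce Nos2 and Duox2 were led by Il1b, at 3.44 (limma adjusted p = 4.41e-05) and 3.48 (7.71e-07), and Tnf, at 2.28 (1.74e-06) and 2.09 (4.67e-08). Of 11 tested cytokine and receptor genes 2 were higher and 0 lower under the WT label, and 4 higher and 1 lower under the KO label (medians 0.32 and 0.23). Of all genes, 30.4% (WT) and 47.2% (KO) were called. The share of this list called in either direction was not above that. The count of transcription factors below is to be read against the same shares. The IL-1 receptor gene Il1r1 was 0.64 (limma adjusted p = 0.148) and 0.84 (0.0123). Ifng, Il17a, Il17f, Il22, Il4 and Il13 did not pass the filter: Ifng reached at most 1.08 FPKM and Il17a 1.63 in tumors, against 0.343 and 0.238 in normal tissue. Of 10 transcription factors reported to act on these genes, 2 were higher and 3 lower under the WT label and 4 higher and 3 lower under the KO label (medians 0.26 and 0.13). Stat3, which relays signals of the IL-6 family, was higher by 0.54 (limma adjusted p = 0.0159) and 0.64 (0.000395), the first without a call when the WT-old libraries were left out (0.53, 0.102). Cdx2, an intestinal homeobox factor, was lower, -3.04 (limma adjusted p = 0.00128) and -1.43 (0.0218). The second was -1.23 with Xist as a covariate (limma adjusted p = 0.0651). It was also -1.23 without KO-8-homo normal replicate 1 (limma adjusted p = 0.057) or replicate 2 (0.0588). The plot of folds by list shows these named genes.

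**Figure D5:**
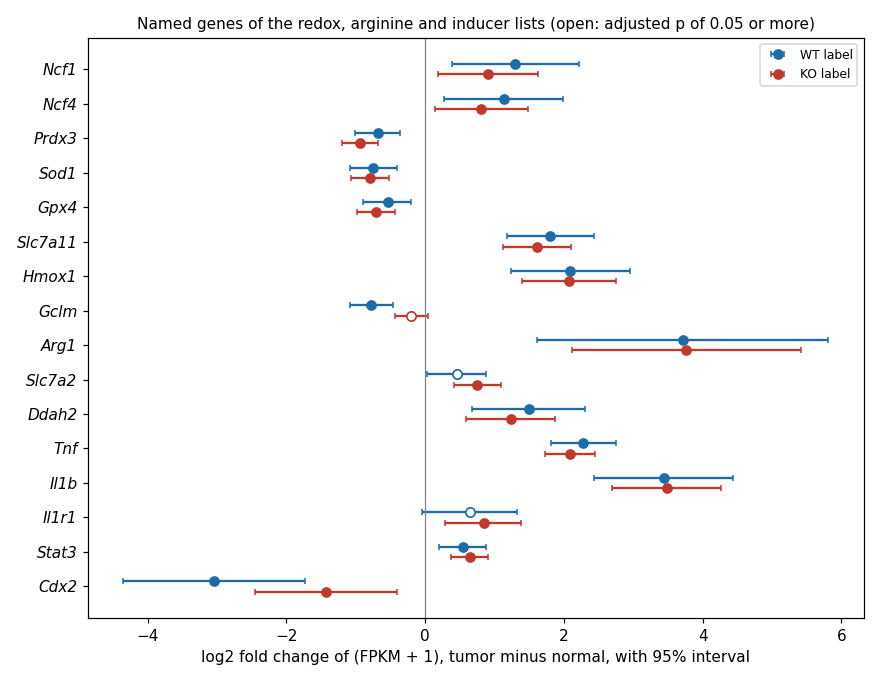
Difference between tumor and normal tissue (x axis, log2 of FPKM + 1) with 95% limma intervals under the WT and KO labels for up to 3 genes of each list; open points had an adjusted p of 0.05 or more. Il1b and Arg1 reach the right of the axis (3.44 and 3.71 under the WT label), and Prdx3, Sod1, Gpx4 and Cdx2 lie left of 0 under both labels.

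Whether the tumor minus normal difference itself depends on the genotype label was tested as an interaction. None of the 8 genes passed, none had an unadjusted p below 0.05, and limma called 0% of all genes, 654 of which had an unadjusted p below 0.05. The interaction ran from -0.18 (Cyba) to 0.24 (Duox2). So the calls for Duox2 and Cybb under the KO label alone are not shown to differ from the WT label.

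Direct comparison of the genotype labels gave no call among the 8 genes in tumors, where limma called 0.00725% of all genes, or in normal tissue, where it called 0%. At an unadjusted p below 0.05 there were 0 of the 8 and 1147 of all genes in tumors, and 0 and 645 in normal tissue. Nox1 had the largest positive difference, 0.57 (limma adjusted p = 0.761) in tumors and 0.71 (1) in normal tissue. Nos2 was -0.25 (0.914) in tumors and -0.27 (1) in normal tissue, and the latter sign rests on WT-old normal replicate 2, without which it was 0.43.

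Among single title groups in tumors, Nox1 in KO-1-hetero came closest to a call. All 3 KO-1-hetero tumors (27.4 to 68.0 FPKM) lay above all 4 WT-young tumors (7.88 to 19.8). The difference was 1.53 (SE 0.432, 95% interval 0.62 to 2.45, limma adjusted p = 0.0631), where limma called 2.88% of all genes. Nox1 would pass with upper quartile scaling (1.63, limma adjusted p = 0.0451), with quantile normalization (1.67, 0.0383) and without the WT-old libraries (1.53, 0.0462). Without KO-1-hetero tumor replicate 3, the library at 68.0 FPKM and the only Xist-high one of these 3, the difference was 1.13 (limma adjusted p = 0.271), and with Xist as a covariate 1.19 (0.163). In the Xist-high KO-8-hetero libraries Nox1 was at 25.1, 14.3 and 11.3 FPKM. Other markers differed in the same comparison: 5 of 6 B and plasma cell genes and 2 of 6 smooth muscle genes were higher in KO-1-hetero, and their part was not tested. Against KO-8-hetero tumors the KO-1-hetero difference for Nox1 was 1.13 (SE 0.462, limma adjusted p = 0.416), where limma called 0% of all genes and 1363 had an unadjusted p below 0.05.

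Cybb in the 3 KO groups and Nos2 in KO-8-homo are the other values of note. The 3 comparisons with WT-young share those 4 control tumors. Cybb exceeded every WT-young tumor in 3 of 3 KO-1-hetero, 1 of 3 KO-8-hetero and 2 of 3 KO-8-homo tumors, with differences of 0.83 (limma adjusted p = 0.205), 0.49 (0.759) and 0.57 (0.623). Nos2 in KO-8-homo tumors, at 11.9, 4.13 and 8.92 FPKM, was -0.74 (limma adjusted p = 0.686) against WT-young and -0.87 (0.927) against KO-8-hetero. By limma 0 of the 8 genes passed in each of the 5 group comparisons. An unadjusted p below 0.05 was found for 2 (Nox1 and Cybb) in KO-1-hetero against WT-young, against 2632 of all 13799 genes. It was found for 1 (Nox1) in KO-1-hetero against KO-8-hetero, against 1363 of all genes, and for 0 in the other 3. Of all genes, 961 had such a p in KO-8-hetero against WT-young, 1399 in KO-8-homo against WT-young and 801 in KO-8-homo against KO-8-hetero. The shares of all genes called were 0.00725% for KO-8-hetero against WT-young, 0.457% for KO-8-homo against WT-young (0.058% higher and 0.399% lower) and 0.0507% for KO-8-homo against KO-8-hetero.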

How the data were processed

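Per the labels' protocols, a miRNeasy kit and a stranded mRNA library kit were used. The authors deposited 1 FPKM table per library. The submitters' processing notes name TopHat2 2.1.1, Bowtie2 2.2.8, SAMtools 0.1.18, Cuffdiff 2.2.1 and mm10. The annotation and the strand setting of the counting are not given in the sources used here. FPKM tables hold no fragment totals, so relative depth was estimated from the smallest values and no counting interval is given. FPKM plus a pseudocount of 1 was log2 transformed, genes with at least 1 FPKM in at least 4 libraries were kept (13799), and limma 3.58.1 (R 4.3.3; lmFit, contrasts.fit, eBayes with an intensity trend, two-sided) was fitted to all 24 libraries, once with genotype label by tissue (4 cells) and once with the 10 title groups. P-values were adjusted over all genes tested (threshold 0.05). Correlations over tumors used 100000 permutations, two-sided (scipy 1.17.1). Groups came from the titles. The fit was tested on simulated data. No libraries of a group held identical values. The genes and lists were chosen with earlier results of these data known. From each pathway list up to 3 genes past the threshold were named by smallest p, and others named were chosen after their values were seen. Some genes counted in the lists are not reported here by name. The squamous list, the overlapping genes and the fit without the 2 squamous tumors were added after seeing the data.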

Additional observations from a re-analysis of the deposited data

Results flagged for a closer look

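Of 45 sets of 4 to 9 libraries checked for a single library far from the rest, 8 held one. The threshold used is Dixon's 95% value, which chance passes in about 1 in 20 independent sets of normally distributed values. FPKM was not log transformed for this check, so that rate need not hold here. The WT-young tumors here also belong to the WT-labelled ones. The third KO-1-hetero tumor had 68 FPKM of Nox1, where the next of 9 KO-labelled tumors was at 30.7. Duox1 was at 9.17 FPKM in KO-8-hetero tumor replicate 2 against 0.0762 in the next of 9, and at 0.581 in WT-young tumor replicate 2 against 0.0713 in the next, both among the 5 WT-labelled and the 4 WT-young tumors. Cyba was lowest in KO-8-hetero tumor replicate 2, at 106 FPKM below 169.5 in the next of 9. It was highest in KO-8-hetero normal replicate 2, at 243.1 above 118.7 in the next of 6. That normal library also had the highest FPKM summed over all genes in the series. Cybb was at 39.5 FPKM in the WT-old tumor against 6.79 in the next of 5 WT-labelled tumors. Nos2 was at 15.4 FPKM in WT-old normal replicate 2 against 2.41 in the next of 4 WT-labelled normal libraries.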

How the results depend on the processing

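Nos2 under both labels and Duoxa2 and Noxa1 under the KO label kept their calls in every alternative run. Signs turned only for differences that did not pass. Nox1 in tumor against normal tissue was -0.02 under the WT label with quantile normalization (-0.30 to 0.41 with 1 library left out), and under the KO label 0.05 with upper quartile scaling and 0.25 with Xist as a covariate (-0.32 to 0.16). Noxo1 under the WT label ran from -0.02 to 0.24 with 1 library left out. The interaction for Cyba ran from -0.31 to 0.04 with 1 library left out, and that for Duox2 from -0.00 to 0.48 and was -0.09 without the WT-old libraries. Nos2 in KO against WT normal tissue was 0.70 without the WT-old libraries (-0.71 to 0.43 with 1 library left out).

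Genes called among the 8 in KO-1-hetero against WT-young tumors became 1 (Nox1) with upper quartile scaling, 1 with quantile normalization and 1 without the WT-old libraries. Of 36 pairs, 3 passed; 1 did without the WT-old libraries, 1 with quantile normalization and 16 after centring within title groups, which leaves fewer free values than the permutation assumes. Upper quartile scaling moved the share of calls that were higher from 51.1% to 61.6% (WT) and from 50.9% to 68.6% (KO), and the median of all genes to 0.114 and 0.171. Quantile normalization moved the shares to 45.5% and 47.4%.

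Whether replicate numbers pair the samples could not be settled. Deviations of same-numbered tumor and normal libraries from their group means correlated at -0.16 to 0.35. Those of same-numbered tumors of different groups correlated at -0.22 to 0.53 (18 pairs). With 2 normal libraries in a group, their deviations mirror each other, so this check can decide little. With a replicate block, Noxo1 under the WT label was -0.02, Cyba 0.94 (limma adjusted p = 0.138) and 0.65 (0.0978), Duoxa2 under the WT label 0.85 (0.185), Duox2 under the KO label 0.76 (0.0787) and Cybb under the WT label 1.74 (0.0275).

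Over all genes, counts of calls ran from 1462 to 4418 (WT tumor against normal, mainly 4192) and from 1513 to 7177 (KO, 6520), lowest when a log2 difference of 1 was also required. They ran from 0 to 2 for KO against WT tumors (1), and with 1 library left out from 15 (without KO-1-hetero tumor replicate 3) for KO-1-hetero against WT-young (397), up to 245 (without KO-8-hetero tumor replicate 1) for KO-8-hetero (1), down to 18 for KO-8-homo (63), up to 344 for KO-8-homo against KO-8-hetero (7) and up to 160 (without KO-8-hetero tumor replicate 3) for KO-1-hetero against KO-8-hetero (0). Fragment totals are unknown, so levels below about 1 FPKM, as for Duox1, are the least certain.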

Other observations

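Outside the comparisons, the FPKM ratio of Cyba to its oxidase partners spread widely. Cyba exceeded Nox1 in all 24 libraries, by 2.82 to 24.5 in tumors (median 10.5) and 1.89 to 21.5 in normal tissue (median 6.02), with both lowest values in KO-1-hetero. It exceeded Cybb by 3.99, in the WT-old tumor, to 50.7 in tumors and by 12.6 to 201 in normal tissue. Nox1 exceeded Noxo1 in 1 of 14 tumors and 2 of 10 normal libraries, all 3 of them KO-1-hetero.

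Lpo, the secreted peroxidase, was at 5.42 to 23.2 FPKM in the KO-labelled tumors (median 14.5) and 4.75 to 10.1 in the WT-labelled tumors (median 5.79), and its difference did not pass. Over 14 tumors the genes with patterns most like that of Nos2 were 9430037G07Rik (r = 0.80), Arel1 (0.745) and 2210407C18Rik (0.731), the last at 0.563 without the 2 farthest tumors.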
